A study of Mus musculus with 6 samples.

Results

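Cholesterol and fatty acid synthesis was followed through 28 genes tied to the sterol regulatory element-binding proteins (SREBPs), taken by gene symbol from a table of 49315 Ensembl mouse genes. All 28 were found in the table, and 26 had enough counts to be tested. The table held bulk RNA sequencing counts from 6 hearts of C57BL/6 mice, 3 wild-type for Txnip and 3 carrying the conditional Txnip C247S knock-in. Txnip is the thioredoxin-interacting protein, and C247S puts serine in place of a cysteine known for its bond with thioredoxin. The labels name MerCreMer, a Cre recombinase that works after 4-hydroxytamoxifen, and that drug for the hearts of both genotypes. They do not give the promoter of the recombinase, whether the wild-type hearts carried it, or the age and sex of the mice. The comparison asks which lipid synthesis transcripts differ between these genotypes.

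SREBPs are transcription factors held in the endoplasmic reticulum membrane. When sterols are scarce, the escort protein SCAP carries them to the Golgi, where proteases release the active part. When sterols are plentiful, the INSIG proteins hold SCAP and the SREBPs back. The product of Srebf2 chiefly drives cholesterol synthesis and that of Srebf1 fatty acid synthesis, and Srebf1 transcription is also raised by the liver X receptors. The adult heart makes little of its own fatty acid and takes up most of its lipid from the blood, so these pathways run at low levels there beside those of liver and fat.

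None of the 26 tested members passed the test between the genotypes (0 called by edgeR at an adjusted p under 0.05, and 0 by DESeq2 or limma-voom). Over all 12777 tested genes edgeR called 0.297%, DESeq2 1.07% and limma-voom 0.141%, so calls were rare in the whole table too. Insig1, a brake on SREBP release, and Fdps, which makes farnesyl diphosphate, were the 2 members with an unadjusted p under 0.05, where 9.97% of all tested genes lay. They were also the 2 members whose hearts did not overlap between the genotypes, against 16.1% of all tested genes. Both shares of the members, 7.69%, lay below those of all genes. By direction, 5.23% of all tested genes had a lower and 4.74% a higher value at that unadjusted p, and 7.99% had all knock-in hearts below and 8.12% above the wild-type ones; the members had 1 gene in each of these 4 classes.

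The intervals limit how large a difference could have gone unseen. For 24 of the 26 members the 95% interval of the knock-in over wild-type ratio lay within a 2-fold change either way, as it did for 86.1% of all tested genes. The exceptions were Gpam, a glycerol-3-phosphate acyltransferase with a wide spread between hearts, and Lss, a lanosterol synthase with few counts. For 17 members it lay within a 1.5-fold change, as for 59.1% of all tested genes. The median log2 fold change of the members was −0.06, beside −0.0068 over all tested genes, and 18 members had a negative value and 8 a positive one. Negative values made up 69.2% of the members and 51.7% of all tested genes.

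**Figure D1:**
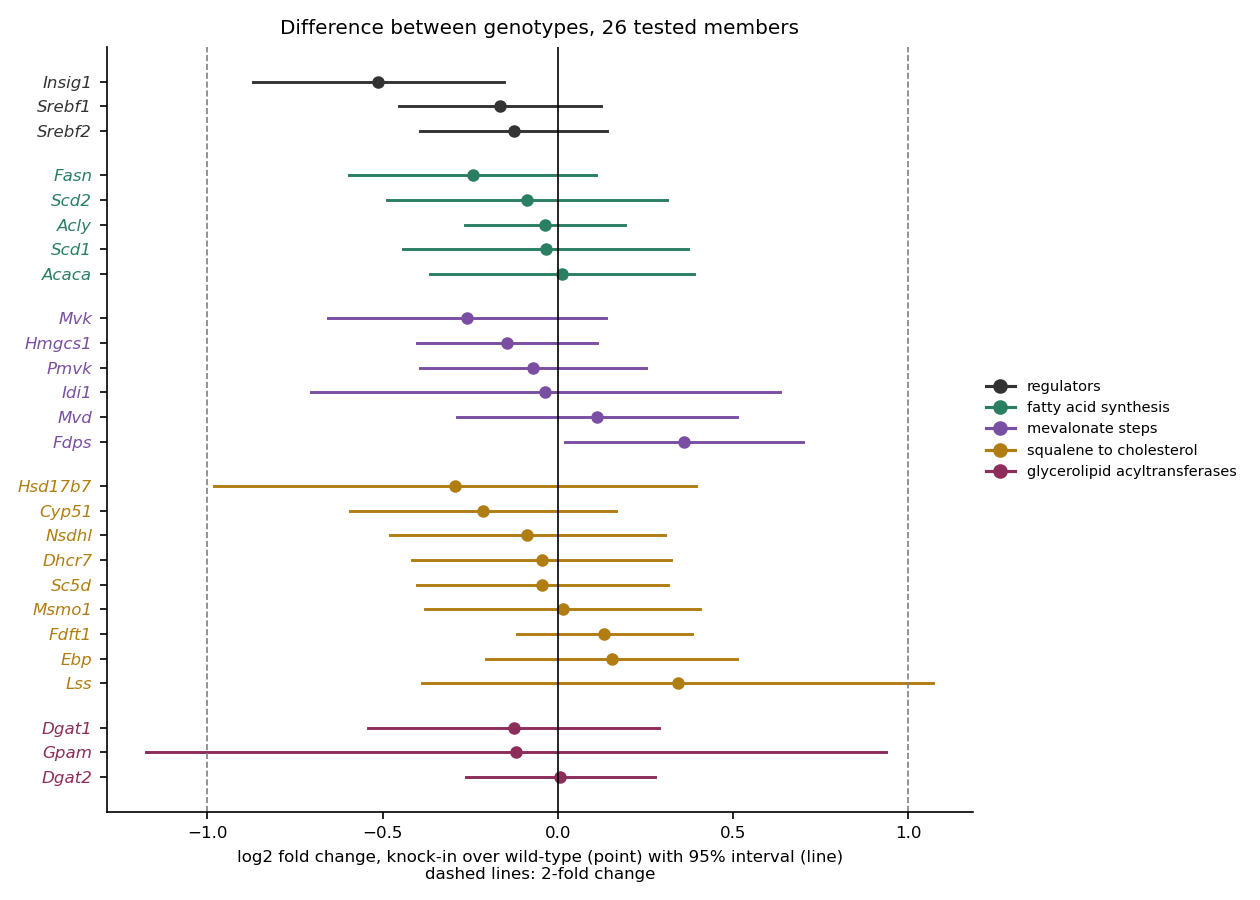
Log2 fold change of each tested member, knock-in over wild-type (points), with its 95% interval from the edgeR fit (lines, 3 hearts per genotype), grouped by role. The intervals of Insig1 and Fdps leave out 0, and those of Gpam and Lss pass a dashed line marking a 2-fold change.

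The libraries held 14146048 to 15620476 counts, a ratio of 1.1. Txnip itself fell from 752 ± 35.3 to 419.6 ± 25.0 CPM (counts per 1000000, TMM-normalised; SD, n = 3 per genotype; edgeR adjusted p = 0.00379, and 0.0525 or 0.0642 with wild-type replicate 2 or knock-in replicate 3 left out). Genes of the mitochondrial chromosome took 22.9% to 28% of the counts, highest in wild-type replicate 3. Xist had 0 counts and Ddx3y at least 451 in each library. Of 8 heart muscle markers 7 were abundant, with Myh6, the alpha myosin heavy chain, at 16080 to 21495 CPM, while Myl7, the atrial light chain, did not exceed 0.346 CPM. Myl2, the ventricular light chain, rose by 0.55 on the log2 scale (edgeR adjusted p = 0.0399). All 5 red blood cell markers, Hba-a1, Hba-a2, Hbb-bs, Hbb-bt and Alas2, rose and were called by edgeR (adjusted p 0.00222 to 0.0399). They summed to 463.2 to 634.7 CPM in wild-type and 1447.2 to 1915.8 CPM in knock-in hearts. The part of these markers in the values of the members was not tested. The design counts hearts, and the sources used here say nothing of a shared litter or batch.

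Fat attached to a heart would carry much lipid synthesis RNA, so its markers were read in each library. Of 10 adipocyte markers 9 had a mean under 1 CPM. Plin1, Lep and Elovl3 had 0 counts in all 6 hearts, and Adipoq, the adiponectin gene, did not exceed 0.0682 CPM. The exception was Cidea, a lipid droplet protein, at 21 to 23.2 CPM in wild-type and 31.6 to 37.0 CPM in knock-in hearts, which edgeR did not call (adjusted p = 0.0667) and DESeq2 did (adjusted p = 0.00366; over all alternatives 0.00147 to 0.288). The summed level of the list was 21.9 to 23.6 CPM in wild-type and 31.7 to 37.7 CPM in knock-in hearts, nearly all of it Cidea. Hepatocyte markers summed to at most 1.43 CPM, with 6 of 6 under 1 CPM. In bulk tissue, fewer cells of a type and less RNA per cell cannot be told apart.

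To compare genes with each other, levels were divided by the length of all exons of the gene and are given as CPM per kilobase. The level of the members spanned a wide range. Dgat2, which adds the last acyl chain to triglycerides, stood far above the rest at 107.1 CPM per kilobase over the 6 hearts (range 87.4 to 119). Gpam, which starts glycerolipid synthesis, came next at 11.4 (7.03 to 17.7), followed by Fdft1, the squalene synthase, at 8.26 (7.52 to 9.68). The fatty acid synthase gene Fasn had 1.90 CPM per kilobase (1.48 to 2.20) and the acetyl-CoA carboxylase gene Acaca 0.65 (0.579 to 0.782). At the bottom were Sqle, the squalene epoxidase, at 0.108, Lss at 0.106 and Elovl6, a fatty acid elongase, at 0.0573.

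Most neighbours in this order could not be told apart. Of 27 neighbouring pairs 5 had hearts that did not overlap: Dgat2 above Gpam, Fdft1 above Pmvk, Fasn above Msmo1, Dhcr7 above Acaca, and Idi1 above Sqle. With the longest transcript as the length instead, an alternative chosen after seeing the data, Dgat2, Gpam, Fdft1 and Pmvk kept the first 4 ranks. Dgat1 moved from rank 9 to 5 and Scd1 from rank 17 to 22. Msmo1 (2.46 CPM per kilobase) then stood above Fasn (2.07), the reverse of the pair named above. Fdft1 (9.44) was then close to Pmvk (9.27). Overlap between hearts was not read with these lengths.

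**Figure D2:**
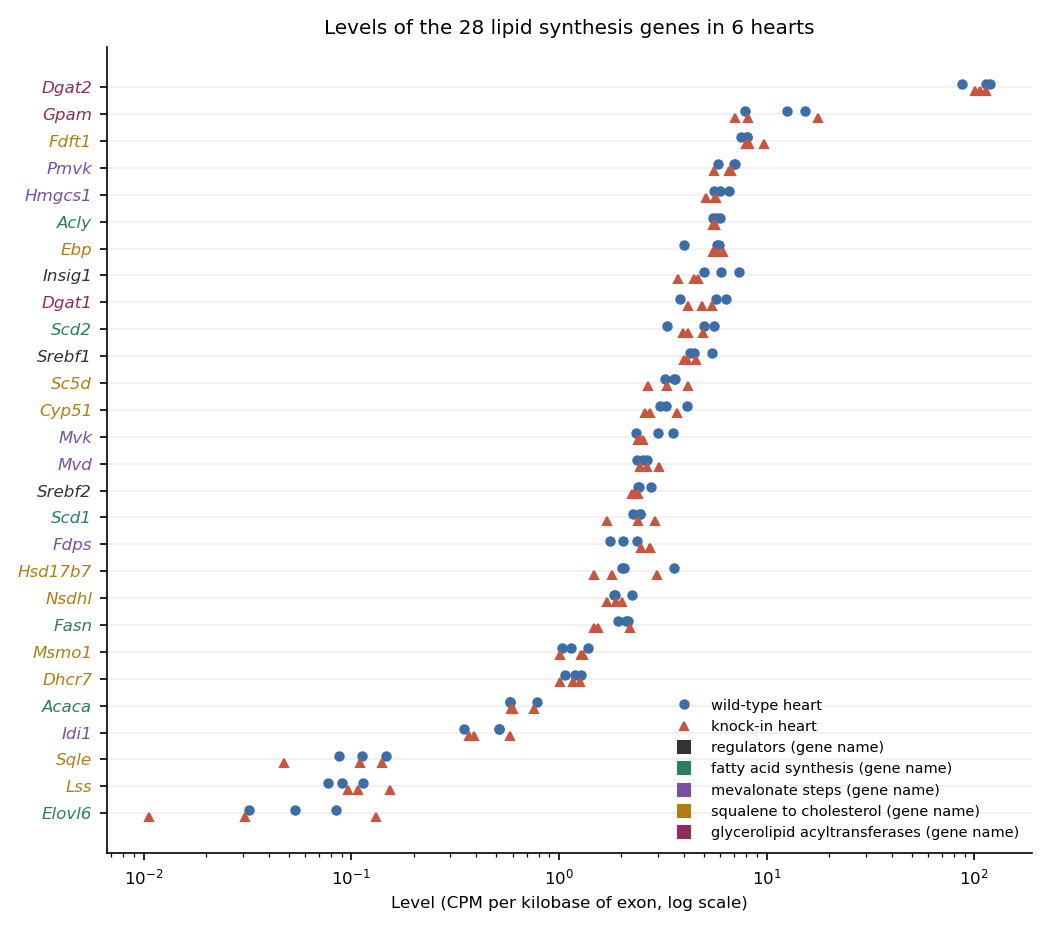
Level of each of the 28 members in CPM per kilobase of exon (log axis), 1 point per heart, ordered by the mean over 6 hearts; gene names are coloured by role. Dgat2 lies near 100 and the lowest genes, Sqle, Lss and Elovl6, near or under 0.1, and circles and triangles of the 2 genotypes mix for most genes.

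Most promoters of the members hold a CCAAT box. The choice by symbol read no promoter, but it took genes tied to SREBPs, so a high share is not an independent result. SREBPs bind sterol regulatory elements together with the factor NF-Y, which reads a CCAAT box, and SREBP-1 can also bind E-boxes. RefSeq promoters (GRCm38.p6), which run from 250 bases before to 50 bases after a start, were held for 21 members. A CCAAT match on either strand was found in 19 of these 21 genes, or 90.5%, against 41.1% of all 27025 genes with a promoter and 42.7% of the tested ones. Genes with several promoters have more chances of a match. Counted by promoter, 20 of 27 member promoters held it, or 74.1%, against 37.4% of all. Acaca and Elovl6 had no match. Among 31 other genes of these pathways with a promoter, 17 held a match, or 54.8%.

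A form of the sterol element, TCACNCCAC, with N for any base, was searched on either strand. It was found in 1 of the 21 members, Hmgcs1, against 1.44% of all genes. Other forms were not searched, so members without a match may still hold a sterol element. The E-box CACGTG was found in 4 members, namely Insig1, Dhcr7, Hsd17b7 and Sc5d, or 19.0%. It was found in 8.09% of all genes and 11.8% of the tested ones. Among the 31 other genes of these pathways 6 held it, or 19.4%, so the members did not stand apart from them. Among the 45 matches in member promoters, 0 pairs of different motifs overlapped, and a match describes these letters only. Shown here are the 250 bases before the RefSeq starts of Hmgcs1, Insig1 and Mvk. Hmgcs1 was the 1 member with a TCACNCCAC match, Insig1 had the smallest p of the members, and Mvk had the most CCAAT matches. Capitals mark these motifs, and ATTGG is CCAAT read on the other strand.
Hmgcs1 (chr13:119690101-119690350, plus strand): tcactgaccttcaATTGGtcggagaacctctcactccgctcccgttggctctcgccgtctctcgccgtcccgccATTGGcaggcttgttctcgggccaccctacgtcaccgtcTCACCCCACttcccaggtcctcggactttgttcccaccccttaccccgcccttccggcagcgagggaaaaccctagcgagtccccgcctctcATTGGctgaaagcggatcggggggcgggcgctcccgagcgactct
Insig1 (chr5:28071162-28071411, plus strand): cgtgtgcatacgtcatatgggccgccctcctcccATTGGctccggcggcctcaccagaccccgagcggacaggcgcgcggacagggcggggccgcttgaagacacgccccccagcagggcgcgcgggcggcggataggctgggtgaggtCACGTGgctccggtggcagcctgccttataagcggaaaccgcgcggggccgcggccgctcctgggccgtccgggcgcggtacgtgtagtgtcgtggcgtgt
Mvk (chr5:114444019-114444268, plus strand): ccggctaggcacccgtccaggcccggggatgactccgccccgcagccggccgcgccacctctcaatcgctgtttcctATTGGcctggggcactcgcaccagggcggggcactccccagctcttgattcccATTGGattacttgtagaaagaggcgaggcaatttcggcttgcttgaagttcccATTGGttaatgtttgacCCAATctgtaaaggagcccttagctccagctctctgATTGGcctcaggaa
These windows hold 3 CCAAT matches for Hmgcs1 beside its TCACNCCAC match, 1 for Insig1 beside its E-box, and 5 for Mvk. The interval of the genotype ratio included 1 for Hmgcs1 and Mvk, as given with the mevalonate genes. It also included 1 for Acaca, which had no CCAAT match (0.776 to 1.31), and left out 1 for Insig1. Whether matches go with genotype differences was not tested.

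The 3 regulators had negative log2 fold changes, with none called. Insig1 (ENSMUSG00000045294, chromosome 5, 28071363 to 28078662, GRCm38) stood at 15.5, 18.6 and 22.8 CPM in the wild-type hearts and at 11.6, 13.8 and 14.5 CPM in the knock-in hearts. Each knock-in heart lay below each wild-type heart, the nearest pair being 14.5 and 15.5 CPM. The means were 19.0 ± 3.67 and 13.3 ± 1.49 CPM (SD, n = 3), a log2 fold change of −0.51 ± 0.16 (SE; edgeR adjusted p = 0.285). The 95% interval of the ratio ran from 0.547 to 0.898. Permuting the 6 values in an exact test (two-sided) gave p = 0.1, the smallest that 3 against 3 allows. Any groups of 3 without overlap must give that p. With wild-type replicate 3 left out the log2 fold change was −0.36, and over all alternatives the adjusted p ran from 0.0604 to 0.593.

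Srebf1, the fatty acid regulator, had 30.9, 24.0 and 25.2 CPM in wild-type and 22.5, 23.2 and 25.8 CPM in knock-in hearts. The groups overlapped, wild-type replicate 1 alone being high, and the log2 fold change was −0.16 ± 0.13 (edgeR adjusted p = 0.750). Srebf2, the cholesterol regulator, had 17.2, 17.5 and 19.9 against 17.3, 16.5 and 16.2 CPM, again overlapping, with −0.13 ± 0.12 (edgeR adjusted p = 0.807). For Srebf1 the interval of the ratio was 0.731 to 1.09 and for Srebf2 0.761 to 1.1. Gene counts read neither the separate Srebf1 isoforms nor the cleavage that activates either protein.

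The INSIG genes were read as a pair. Insig2, the second brake, had a log2 fold change of 0.02 ± 0.11 (edgeR adjusted p = 0.985), at 48.8, 54.4 and 52.5 CPM in wild-type and 47.7, 59.8 and 50.1 CPM in knock-in hearts. Per kilobase, Insig2 exceeded Insig1 in every heart. The ratio of Insig2 to Insig1 was 2.80, 2.61 and 2.05 in wild-type and 3.65, 3.87 and 3.07 in knock-in hearts. These ratios did not overlap. The exact two-sided permutation test gave p = 0.1, which any 3 against 3 without overlap must give, so it adds nothing to the separation. This pair and the other ratios given here were chosen after their values were seen. The ratio of Srebf1 to Srebf2 per kilobase was 1.89 ± 0.354 in wild-type and 1.83 ± 0.193 in knock-in hearts (SD, n = 3), and its groups overlapped.

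**Figure D3:**
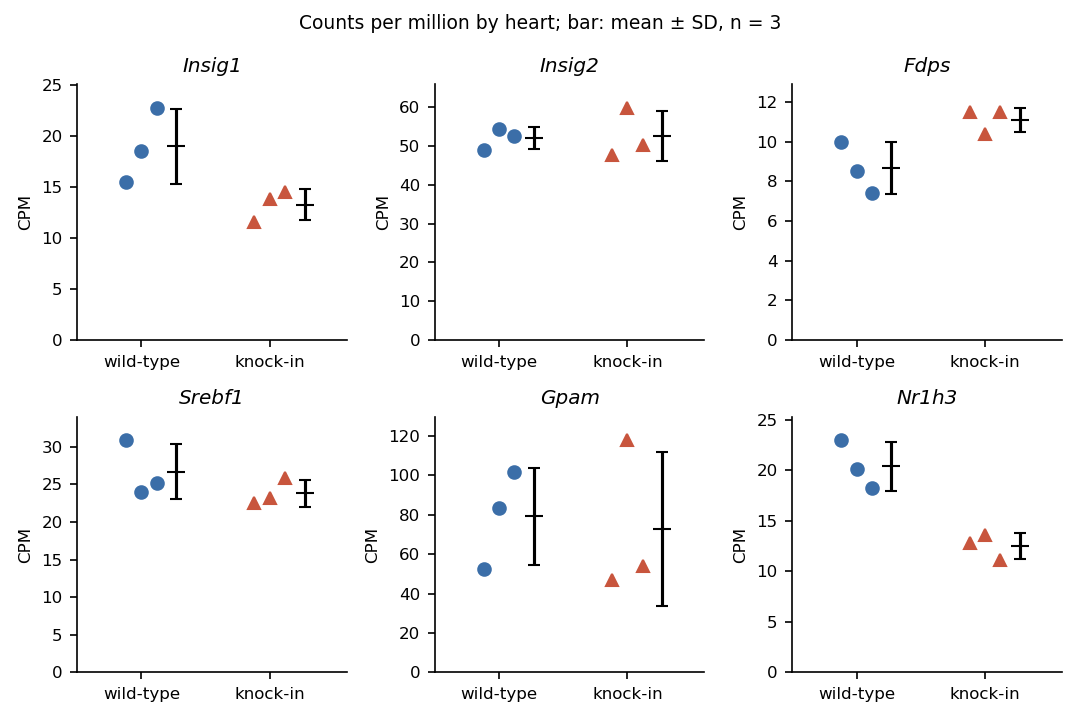
CPM in each heart (circles wild-type, triangles knock-in) with mean ± SD (n = 3) for Insig1, Insig2, Fdps, Srebf1, Gpam and Nr1h3; axes start at 0. The genotypes separate for Insig1, Fdps and Nr1h3 and overlap for the others, and knock-in replicate 2 is the highest Gpam heart at 117.9 CPM.

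In fatty acid synthesis none of the 5 tested genes was called, and 4 had negative values. Acly, which splits citrate into acetyl-CoA, was the steadiest tested member, at 31.5, 29.2 and 30.1 CPM in wild-type and 29.7, 29.8 and 29.0 CPM in knock-in hearts. Its log2 fold change was −0.04 ± 0.10 and the interval of the ratio 0.832 to 1.14. Acaca, which makes malonyl-CoA, had 9.88, 9.90 and 13.4 against 10.3, 13 and 10 CPM, with 1 high heart in each genotype (log2 fold change 0.01 ± 0.17). Of the 31-base words of its longest transcript 56.8% occur in other genes, chiefly Gm5182, so its counts are uncertain. The cardiac malonyl-CoA that restrains mitochondrial fatty acid uptake comes largely from its paralogue Acacb, which had 264.1 ± 30.0 against 237.5 ± 31.1 CPM (edgeR adjusted p = 0.748). The ratio of Acacb to Acaca per kilobase was 42.7 ± 2.64 in wild-type and 37.9 ± 1.05 in knock-in hearts. Its groups did not overlap (exact two-sided permutation p = 0.1, which any such separation must give). It rests on the uncertain Acaca counts.

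Fasn had 23.1, 21 and 23.6 CPM in the wild-type hearts and 16.9, 24.1 and 16.2 CPM in the knock-in hearts. Knock-in replicates 1 and 3 were therefore below all wild-type hearts and replicate 2 above them. The log2 fold change was −0.24 ± 0.16 (edgeR adjusted p = 0.685). With knock-in replicate 2 left out it was −0.44, and over all alternatives the adjusted p ran from 0.0909 to 0.981.

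The desaturases place the first double bond in saturated fatty acids. Scd1 had 12, 11.1 and 12 CPM in wild-type and 14.2, 8.30 and 11.7 CPM in knock-in hearts (log2 fold change −0.03 ± 0.18). Here knock-in replicate 2 was the lowest of all hearts. Scd2 had 30.5, 18.1 and 27.4 against 22.8, 26.9 and 21.7 CPM (−0.09 ± 0.18), with wild-type replicate 2 the lowest. Per kilobase Scd2 lay above Scd1 in each heart, by 1.93 ± 0.417 times in wild-type and 2 ± 0.79 times in knock-in hearts. The 2 genes share sequence, with 8.3% of the words of Scd1 and 6.86% of those of Scd2 found in other genes, chiefly each other. Scd2 is also a gene of myelin-forming cells, and 4 of 6 Schwann cell markers had a mean under 1 CPM. Elovl6 was too low to be tested, with 8, 5 and 3 counts in wild-type and 13, 3 and 1 in knock-in libraries, where 3 counts equal 0.195 to 0.208 CPM.

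In the mevalonate steps, which build the isoprene unit of sterols, 1 of 6 genes had an unadjusted p under 0.05. Fdps had 10.0, 8.52 and 7.41 CPM in the wild-type hearts and 11.5, 10.4 and 11.5 CPM in the knock-in hearts. All knock-in hearts lay above all wild-type hearts, by a small margin at the nearest pair. The log2 fold change was 0.36 ± 0.15 (edgeR adjusted p = 0.468) and the interval of the ratio 1.01 to 1.62. Its direction was opposite to that of Insig1. Of the 31-base words of its longest transcript, 13.6% also occur in other genes, chiefly Gm43738.

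Hmgcs1, an early synthase of the pathway, had 27.5, 25.6 and 30.2 against 23.4, 25.8 and 26.2 CPM, with overlapping groups. Its log2 fold change was −0.14 ± 0.12 and the interval of the ratio 0.757 to 1.08. Mvk, the mevalonate kinase, had 8.04, 9.49 and 6.30 CPM in wild-type hearts and a narrow 6.46 to 6.83 CPM in knock-in hearts (−0.26 ± 0.18, interval 0.634 to 1.1). Pmvk, the next kinase, had 12.1, 11.9 and 9.97 against 11.3, 9.55 and 11.5 CPM (log2 fold change −0.07 ± 0.15). Mvd, the decarboxylase, had 4.91, 4.43 and 4.71 against 5.66, 4.94 and 4.57 CPM (0.11 ± 0.18), so that both of these genes had overlapping groups. Idi1, the isomerase, was scarce at 1.23 to 2.04 CPM over all hearts, and the interval of its ratio was wide, 0.614 to 1.55. Idi1 shares 32% of its words with other genes, chiefly Gm13502, and Hmgcs1 14.6%. Adjusted p-values of these 5 genes in edgeR ran from 0.706 to 0.990.

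From squalene to cholesterol, 9 of 10 enzymes were tested, 4 with positive and 5 with negative values and none called. Fdft1, which commits carbon to sterols, was the most abundant of them per kilobase and had 34.1, 31.8 and 34.0 CPM in wild-type and 33.7, 40.9 and 34.9 CPM in knock-in hearts. Its log2 fold change was 0.13 ± 0.11 with an interval of the ratio from 0.922 to 1.30. Of its words 36.8% occur in other genes, chiefly Ctsb, so reads could be shared. Sqle, often the limiting enzyme after it, was not tested, with 12, 7 and 9 counts in wild-type and 12, 4 and 9 in knock-in libraries.

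Cyp51, the lanosterol demethylase, had 13.6, 14.4 and 18.3 against 11.5, 16.3 and 12.1 CPM (log2 fold change −0.21 ± 0.17, interval of the ratio 0.663 to 1.12). Hsd17b7, a sterol ketoreductase, had the widest spread within genotypes of the 9 tested enzymes here, at 10.3, 10.5 and 18.3 CPM in wild-type and 7.55, 15.1 and 9.20 CPM in knock-in hearts. In each genotype 1 heart was high, wild-type replicate 3 and knock-in replicate 2, and the interval was wide, 0.506 to 1.32. Ebp, the sterol isomerase, had 9.27 CPM in wild-type replicate 3 and 12.8 to 14.2 CPM in the other hearts (0.15 ± 0.16).

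Msmo1, the oxidase of C4 demethylation, had 6.34, 8.45 and 7.06 CPM in wild-type and 7.81, 8.04 and 6.2 CPM in knock-in hearts (log2 fold change 0.01 ± 0.18). Nsdhl, which acts with it, had 6.41, 5.33 and 5.26 against 4.88, 5.40 and 5.73 CPM (−0.09 ± 0.18). Sc5d, the desaturase, had 15.8, 17.5 and 17.6 against 13, 20.3 and 16.2 CPM (−0.04 ± 0.16). In Sc5d the wild-type hearts lay close together and inside the range of the knock-in hearts. Dhcr7, the last reductase, had 6.2, 7.41 and 6.99 against 6.77, 7.31 and 5.86 CPM (−0.05 ± 0.17). Lss, which closes the sterol rings, had 0.34 ± 0.33 at 12 to 25 counts per library, with an interval of the ratio from 0.764 to 2.10. Apart from Lss these genes had log2 fold changes near 0. The adjusted p-values of the 9 tested enzymes in edgeR ran from 0.754 to 0.993.

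The 3 glycerolipid acyltransferases summed to 382.8 to 467.6 CPM in wild-type and 396.2 to 445.0 CPM in knock-in hearts, and none was called. Dgat2 had 351.6, 367.0 and 269.4 CPM in wild-type and 352.9, 310.4 and 329.3 CPM in knock-in hearts. Wild-type replicate 3 was low, the means were 329.3 ± 52.5 and 330.9 ± 21.3 CPM, and the log2 fold change was 0.0067 ± 0.12. The interval of the ratio was 0.833 to 1.21. Dgat1, the other enzyme of this step, had 19.5, 17.4 and 11.7 against 15.0, 16.7 and 12.8 CPM (−0.13 ± 0.19). Per kilobase Dgat2 exceeded Dgat1 by 20.5 ± 2.5 times in wild-type and 22.4 ± 3.59 times in knock-in hearts.

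Gpam had 52.7, 83.2 and 101.7 CPM in the wild-type hearts and 46.8, 117.9 and 54.1 CPM in the knock-in hearts. The highest heart exceeded the lowest 2.52-fold, and both extremes were knock-in hearts. The within-genotype SD of log2 CPM was 0.612, the largest of the 26 tested members, beside 0.0418 for Acly. The log2 fold change of −0.12 ± 0.43 therefore carried an interval of the ratio from 0.443 to 1.92, and ratios within that range were not excluded. It was −0.64 when knock-in replicate 2 was left out and 0.10 when wild-type replicate 3 was.

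Gpam, Hsd17b7, Cyp51, Acaca, Fasn and Sc5d had their highest wild-type value in replicate 3 and their highest knock-in value in replicate 2. These 6 of 26 members were 23.1%, beside 22.0% of all tested genes, so this joint pattern was about as common in the members as elsewhere. Knock-in replicate 2 taken alone was the highest knock-in heart for 14 of 26 members, or 53.8%, beside 39.7% of all tested genes. The median deviation of the members from their own means was 0.106 on the log2 scale in that heart, and −0.0816 and −0.0971 in knock-in replicates 1 and 3. Wild-type replicate 3 and knock-in replicate 2 were also removed together, an alternative chosen after seeing the data. Then 0 members were called, their median log2 fold change was −0.097, and the count of calls over all genes was 392.

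**Figure D4:**
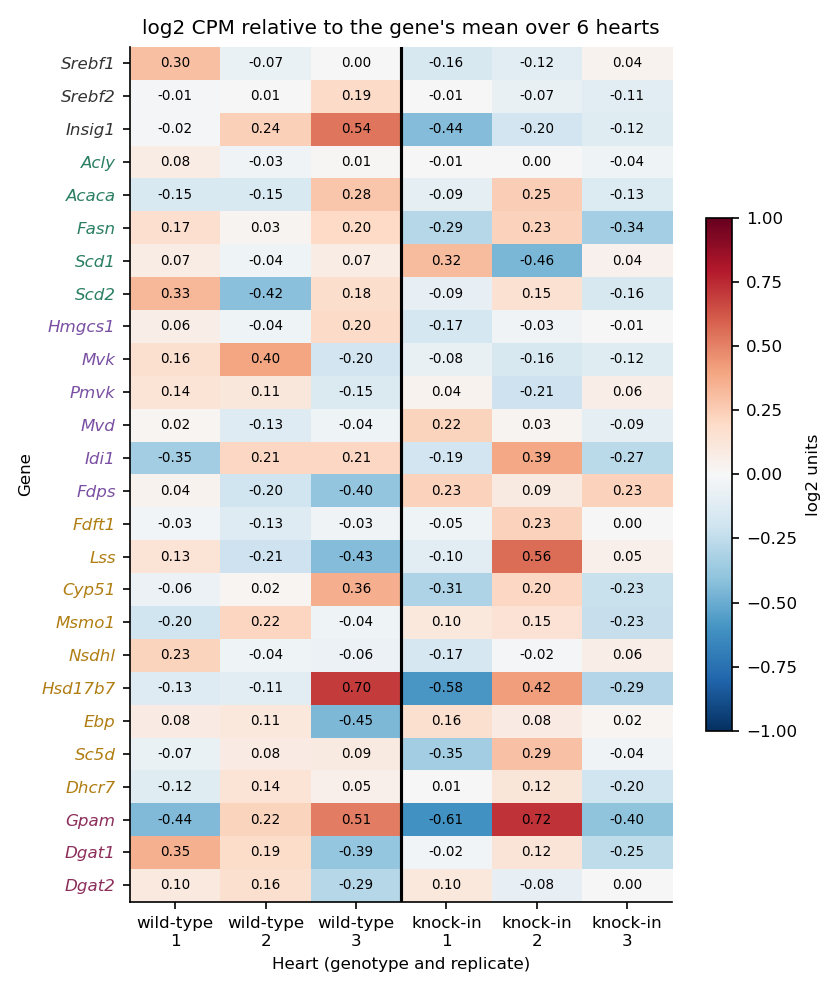
Log2 CPM of each tested member in each heart relative to the gene's mean over the 6 hearts (numbers and colour; red higher, blue lower), gene names coloured by role as in the plot of levels. The strongest colours are Gpam in knock-in replicate 2 and Hsd17b7 in wild-type replicate 3, while Acly stays within 0.0756 of 0.

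Around the members, 40 further genes of SREBP processing, sterol synthesis, sterol transport, fatty acid synthesis and glycerolipid synthesis were listed, of which 38 were tested. EdgeR called 0 of them, 4 had an unadjusted p under 0.05 (10.5%, beside 9.97% of all tested genes), limma-voom called 0 and DESeq2 called 1. Their median log2 fold change was 0.03, with 24 positive and 14 negative. In SREBP processing the smallest p belonged to Mbtps2, the second protease that frees SREBPs, at −0.39 ± 0.20 (edgeR adjusted p = 0.561), while Scap, the escort, had −0.0045 ± 0.12. In sterol synthesis it belonged to Acat2, which joins acetyl-CoA units, at 0.34 ± 0.20 (0.648 adjusted in edgeR). Its counts are uncertain, since 50.5% of its words occur in other genes, chiefly Acat3. In glycerolipid synthesis it was Lpin2, a phosphatidate phosphatase, at 0.33 ± 0.19 (0.627 adjusted in edgeR).

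Nr1h3, which encodes liver X receptor alpha, an activator of Srebf1 transcription, had the smallest p of all these genes. It had 23.0, 20.1 and 18.2 CPM in wild-type and 12.8, 13.6 and 11.1 CPM in knock-in hearts, with no overlap. The log2 fold change was −0.71 ± 0.14 and the interval of the ratio 0.494 to 0.758. EdgeR did not call it (adjusted p = 0.0842), DESeq2 did (adjusted p = 0.0108), and limma-voom did not (adjusted p = 0.102). With knock-in replicate 2 left out edgeR called it (adjusted p = 0.0260), and over all alternatives the adjusted p ran from 9.97e-04 to 0.434. Nr1h2, the beta receptor, chosen here after its values were seen, had 36.6 ± 3.69 against 29.1 ± 1.37 CPM (−0.33 ± 0.12, edgeR adjusted p = 0.355).

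Macrophages also express Nr1h3, and their markers had lower values in the same hearts. All 10 macrophage markers had negative log2 fold changes with a median of −0.47, and 1, the lysozyme gene Lyz2, was called. Their summed level was 343.7 to 398.4 CPM in wild-type and 262.5 to 283.8 CPM in knock-in hearts. The part of these cells in the Nr1h3 values was not tested.

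Fads2, a desaturase of polyunsaturated fatty acids, had the smallest p of the fatty acid list. It had 2.25, 1.52 and 1.38 CPM in wild-type and 2.67, 3.03 and 3.00 CPM in knock-in hearts, which did not overlap (log2 fold change 0.75 ± 0.26, edgeR adjusted p = 0.347). The interval of the ratio, 1.13 to 2.5, was wide, and its counts were low, at 20 to 46 per library.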

How the data were processed

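Bulk RNA sequencing of 6 hearts, 3 per genotype, was analysed from a deposited table of raw read counts per Ensembl gene. The submitters' processing notes list the build GRCm38.p6 and, as tools, DESeq2, STAR, Subread 1.5.2 and featureCounts; the role of each, the annotation release, strandedness and the handling of multi-mapping reads are not given. Genes that share sequence can therefore gain or lose reads.

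GENCODE M21 (GRCm38) gave names, positions and exon lengths for 49056 of 49315 identifiers. The whole table was fitted at once in edgeR 4.0.16 under R 4.3.3, with filterByExpr, TMM scaling, robust glmQLFit and glmQLFTest. A gene was called at an adjusted p under 0.05 (Benjamini-Hochberg over 12777 tested genes). The SE of a log2 fold change was its size over the root of the F statistic, and 95% intervals used the total degrees of freedom of the fit. The functions were tested on simulated data. No 2 hearts of a genotype matched within sampling noise (the chi-square statistic was 7.16 to 27 times its degrees of freedom), and each was taken as 1 replicate. P-values set the difference between the genotypes against the spread between hearts within a genotype, which the fit moderates with values from all genes. Reads carry no molecular identifiers, so the floor of 3 counts covers counting error only.

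The members and lists were chosen with earlier results of these data known. Named genes are all members, and from each list of other pathway genes the called ones or else the 1 with the smallest p. Among markers they are the called ones and, for some lists only, the most abundant. The gene pairs, Insig2, Scap, Acacb, Nr1h2, Myl7 and the named adipocyte markers were chosen after their values were seen. As alternatives, scaling was by RLE, upper quartile or totals alone. The low-count filter was dropped or replaced by a 1 CPM mean. DESeq2 1.42.0 and limma-voom (limma 3.58.1) were run, robust estimation was turned off, mitochondrial genes were removed, each heart was left out, and 0.1 replaced 0.05. Removing wild-type replicate 3 together with knock-in replicate 2, and lengths by longest transcript, were added after seeing the data. Promoter sequences came from RefSeq.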

Additional observations from a re-analysis of the deposited data

How the results depend on the processing

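The count of 0 called members held under every alternative run, including an adjusted p under 0.1, and the median of the members stayed between −0.111 (knock-in replicate 2 left out) and −0.026 (knock-in replicate 3 left out). Over all genes the 38 calls became 317 without a filter, 138 with DESeq2, 18 with limma-voom and 75 at an adjusted p under 0.1. They ranged from 5 (wild-type replicate 2 absent) to 174 (knock-in replicate 2 absent) with 1 heart left out, and were 392 with both wild-type replicate 3 and knock-in replicate 2 removed. Among the other pathway genes, Nr1h3 was the 1 call without a filter, with DESeq2 and with knock-in replicate 2 absent, and 1 gene passed an adjusted p under 0.1. The range with 1 heart left out was 0 to 1. With that pair of hearts removed there were 2 calls, Nr1h3 and Mylip (log2 fold change 0.468). The cause of these moves was not tested.

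Of 416 values of single members under 16 alternatives, 383 kept their direction and 33 turned, none of them called, in 14 members. With 1 heart left out, log2 fold changes that turned ranged as follows: Acaca (−0.108 to 0.171), Scd1 (−0.215 to 0.159), Scd2 (−0.279 to 0.0658), Pmvk (−0.155 to 0.0204), Idi1 (−0.262 to 0.0843), Msmo1 (−0.077 to 0.135), Nsdhl (−0.139 to 0.0098), Hsd17b7 (−0.628 to 0.0329), Ebp (−0.00445 to 0.25), Sc5d (−0.212 to 0.111), Dhcr7 (−0.115 to 0.0373), Gpam (−0.644 to 0.127), Dgat1 (−0.313 to 0.0292), Dgat2 (−0.119 to 0.0923). With library-size scaling Acaca had −0.027, Msmo1 −0.0271 and Dgat2 −0.036, and with upper-quartile scaling Dgat2 had −7.78e-04. With the pair of hearts removed Scd1 (0.174), Msmo1 (−0.0686) and Dgat2 (−0.0686) turned, while Nsdhl (−0.143) and Dgat1 (−0.398) kept their direction. Outside the members, Insig2 ran from −0.0762 to 0.0928 with hearts left out and was −0.0225 under library-size scaling. Scap ran from −0.0961 to 0.0535, with 1.76e-04 under RLE scaling and 0.00159 in DESeq2. The other 12 members kept their sign, though not their size: Insig1 ran from −0.637 to −0.357, Fdps from 0.26 to 0.479, Srebf1 from −0.235 to −0.0463 (lowest in size with wild-type replicate 1 absent), Mvk from −0.401 to −0.112 (wild-type replicate 2), Cyp51 from −0.38 to −0.0747 (wild-type replicate 3) and Lss from 0.00565 (the pair removed) to 0.506. Srebf2 (−0.165 to −0.0457), Acly (−0.0773 to −0.00772), Fasn (−0.438 to −0.138), Hmgcs1 (−0.199 to −0.0798), Mvd (0.0317 to 0.18) and Fdft1 (0.0529 to 0.197) also moved. No paired analysis was possible because the labels carry no replicate numbers shared by the genotypes. Depth limits Elovl6, Sqle, Lss and Idi1 most.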
